A study of Mus musculus with 22 samples.

Results

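The 10 genes described here make fatty acids in liver or are tied to that pathway: the regulator Srebf1, the lipogenic protein Thrsp, the lipid droplet protein Pnpla3 and 7 enzymes (Acly, Acaca, Acacb, Fasn, Elovl6, Scd1 and Me1). They were taken by symbol from the authors' deposited table, where each has 1 row, and they are 10 of its 24197 RefSeq genes. The table holds nuclear poly(A) RNA of livers from CD-1 mice labelled 7 weeks of age. Males and females were injected with TCPOBOP at 3 mg/kg, an agonist of the receptor CAR, or with vehicle (1% DMSO in corn oil) and studied after 3 h or 27 h, with 2 pools of RNA per group and 4 mice per pool at 3 h and 3 mice per pool at 27 h. Males were also given PCN at 50 mg/kg, an agonist of the receptor PXR, or the same vehicle for 3 h, with 3 pools per group and 4 mice per pool. All mice were of 1 outbred stock with no engineered allele named in the labels. The question these genes bear on is whether activating a drug-sensing receptor changes the RNA of the fatty acid pathway. The members were chosen for their function and with earlier results of these data known.

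In the liver, surplus citrate leaves the mitochondria and is cut to acetyl-CoA by Acly. The carboxylases Acaca and Acacb turn acetyl-CoA into malonyl-CoA, Fasn builds palmitate from it with NADPH that Me1 helps to supply, Elovl6 lengthens the chain and Scd1 puts in a double bond. Srebf1 encodes SREBP-1, a membrane-bound transcription factor that is cut and enters the nucleus when insulin is high, and Thrsp and Pnpla3 are known as genes that respond to feeding along with the enzymes.

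A group is a single mean FPKM (fragments per kilobase of gene, scaled to the mapped fragments of the library) in the authors' deposited table, with no value per pool, so no SD or test across pools was computed. A gene is called raised or lowered where the adjusted p in that table is below 0.05, with the sign of the ratio given there. The table lists no library, and reading the depth of each pool from its low values gave 25400000 to 46700000 fragments for the TCPOBOP libraries and 19000000 to 31900000 for the PCN libraries. Of 9 hepatocyte markers, each reached at least 72.3 FPKM in some group. Fat cells also make lipogenic enzymes, and of the 6 adipocyte markers all but Fabp4, which is also made by endothelial cells, stayed between 0 and 0.0760 FPKM in every group. Fabp4 lay between 1.88 and 4.78 FPKM. Summed markers ranged from 24.8 to 94.9 FPKM for Kupffer cells, highest in 27 h female vehicle, from 50.2 to 83.9 for sinusoidal endothelium, from 19.2 to 39.0 for stellate cells and from 1.13 to 1.66 for cholangiocytes. Some markers were called: after PCN 5 of 9 hepatocyte markers (Apoa1, Serpina1a, Fgb, Cps1 and Hnf4a), Fabp4 and the endothelial Clec4g were raised and the Kupffer cell marker Cd5l was lowered. In 27 h males Serpina1a, Emr1, Kdr and Pecam1 were raised and Fgb was lowered, in 3 h females Serpina1a, Emr1 and Lyve1 were raised, in 27 h females Serpina1a was raised, and in 3 h males no marker was called. Of all genes at 1 FPKM or more, 12.9% were raised and 9.41% lowered after PCN. These shares were 8.71% and 7.61% in 27 h males and 2.67% and 1.84% in 3 h females. They were 6.98% and 6.01% in 27 h females and 1.33% and 0.505% in 3 h males. The part of these markers in the results was not tested. Fewer cells of a type and less RNA per cell cannot be told apart in such pooled tissue.

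Thrsp and Pnpla3 are the genes the results turn on, and Fasn, the synthase of palmitate, is shown beside them as 1 of the 4 enzymes with no call in any comparison (the others are Acaca, Acacb and Scd1), so the promoter windows of these 3 genes are shown first. Each window runs 5′ to 3′ from 250 bases before to 50 bases after the start of the gene, from RefSeq on build GRCm38.p6. Capitals mark CCAAT boxes (CCAAT) and GC boxes (GGGCGG) on either strand.

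Thrsp, chr7:97417501-97417800, minus strand: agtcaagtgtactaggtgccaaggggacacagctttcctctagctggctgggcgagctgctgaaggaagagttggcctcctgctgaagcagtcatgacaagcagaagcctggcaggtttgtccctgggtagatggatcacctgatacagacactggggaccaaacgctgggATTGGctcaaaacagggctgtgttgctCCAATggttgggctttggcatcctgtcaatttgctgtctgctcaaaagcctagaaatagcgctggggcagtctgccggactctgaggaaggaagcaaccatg

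Pnpla3, chr15:84167566-84167865, plus strand: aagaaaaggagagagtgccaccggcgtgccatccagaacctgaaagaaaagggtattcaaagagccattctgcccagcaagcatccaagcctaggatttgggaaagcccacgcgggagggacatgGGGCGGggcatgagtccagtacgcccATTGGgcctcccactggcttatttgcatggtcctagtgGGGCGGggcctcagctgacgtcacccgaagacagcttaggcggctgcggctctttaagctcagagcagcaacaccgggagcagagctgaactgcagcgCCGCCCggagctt

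Fasn, chr11:120824498-120824797, minus strand: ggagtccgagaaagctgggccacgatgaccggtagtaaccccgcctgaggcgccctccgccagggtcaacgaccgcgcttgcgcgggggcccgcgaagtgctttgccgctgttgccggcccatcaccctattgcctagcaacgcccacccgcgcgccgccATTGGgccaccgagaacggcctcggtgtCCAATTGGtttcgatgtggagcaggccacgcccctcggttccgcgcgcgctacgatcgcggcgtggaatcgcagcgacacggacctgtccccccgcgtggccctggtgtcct

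The Thrsp window holds a CCAAT box at position -79 on the opposite strand and another at -52, counted from the gene start. The Fasn window holds CCAAT boxes at -90, -62 and -59, of which the last pair share bases. Pnpla3 has 1 CCAAT box at -99 and GC boxes at -125, -61 and 37. A window was found for 9 of the 10 members, with 12 windows in all. CCAAT was present in 8 of these 12 windows, which belong to 7 genes, against 37.4% of the 32851 windows of all genes. GGGCGG was in 5 of the 12, of 4 genes, against 35.7%; the windows of 1 gene are not independent. The SREBP site core TCACNCCAC and the E-box CACGTG were in no member window, against 1.24% and 7.15% of all windows. These are matches of letters in a short window and are not bound sites.

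TCPOBOP raised 2 of the 10 genes in 3 h males and lowered none, against 0.868% of all genes called in either direction. In 27 h males 3 were raised and none lowered, against 8.46% of all genes. In 3 h females 2 were raised and none lowered (2.1% of all genes), and in 27 h females 3 were raised and 1 was lowered (6.35% of all genes). PCN raised 3 and lowered 2 in 3 h males, against 9.78% of all genes. Thrsp and Pnpla3 were raised in all 5 comparisons, while of the 7 enzymes 7, 6, 7, 6 and 5 were not called in the order given here. By direction, 0.612% of all genes were raised and 0.256% lowered in 3 h males, 4.8% and 3.65% in 27 h males, 1.26% and 0.839% in 3 h females, 3.49% and 2.86% in 27 h females, and 5.22% and 4.55% after PCN. Ranked by fold among the raised genes at 1 FPKM or more, Thrsp was 36 of 913 in 27 h males and 491 of 728 in 27 h females, and Pnpla3 was 83 and 60. The median log2 ratio of the 10 genes was 0.20, 0.38, -0.19, -0.26 and -0.01 in that order, beside 0.00, -0.01, -0.02, -0.0045 and 0.03 over all genes at 1 FPKM or more.

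**Figure D1:**
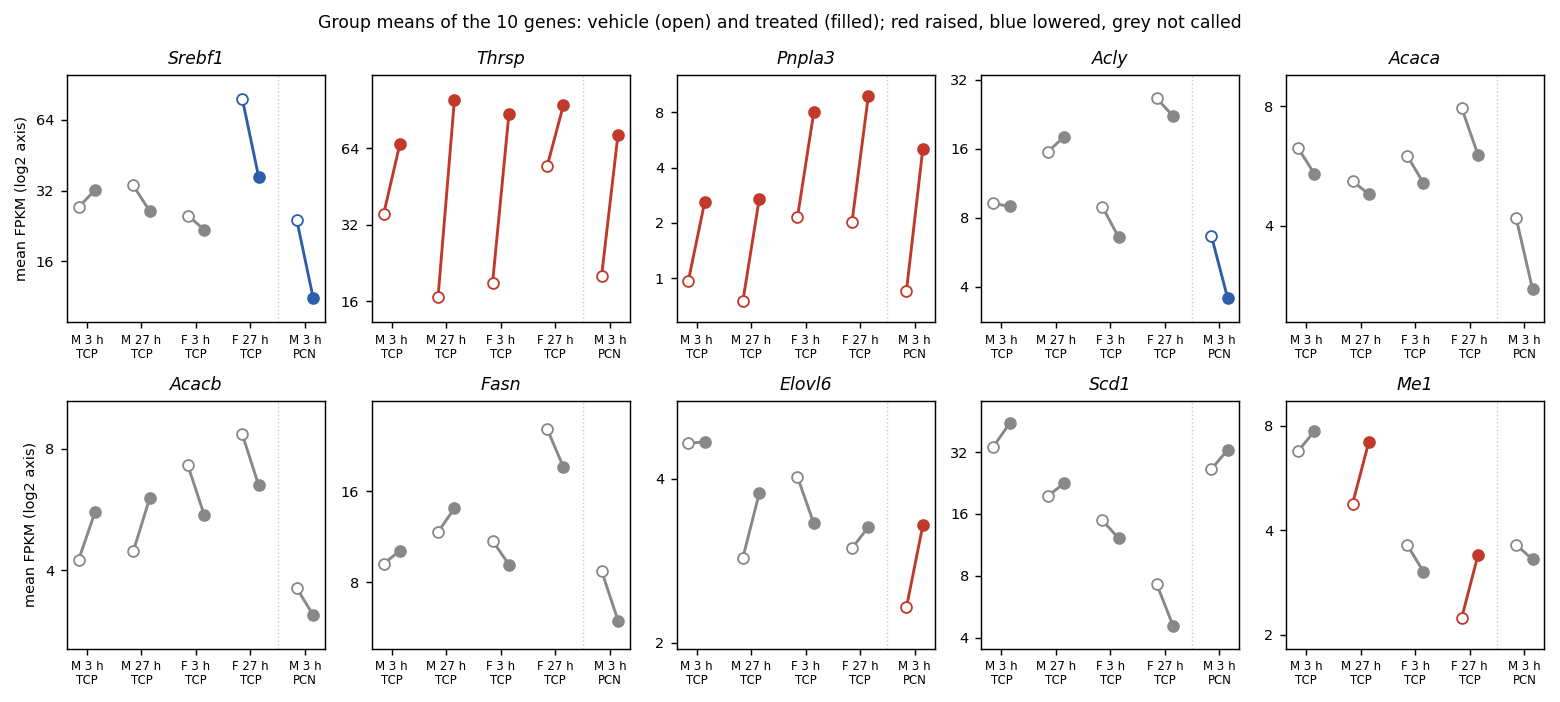
Mean FPKM of each gene (log2 axis) in vehicle (open points) and treated groups (filled points) of the 5 comparisons, with M for male, F for female and TCP for TCPOBOP; red lines join groups called raised, blue lowered and grey not called. Thrsp and Pnpla3 have rising red lines in all 5 comparisons, and the dotted line parts the PCN set, which has its own vehicle pools.

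Thrsp (chr7:104561467-104566020, mm9) encodes a small protein that responds to thyroid hormone and promotes lipogenesis. Its mean in the authors' deposited table was 35.1 FPKM in 3 h male vehicle, 16.7 in 27 h male vehicle, 18.98 in 3 h female vehicle, 54.3 in 27 h female vehicle and 20.2 in the PCN vehicle. After treatment it was 66.5, 99.0, 87.4, 94.6 and 72.3 FPKM in the same order. The treated means of the 4 TCPOBOP groups lay within 1.49-fold of each other, the vehicle means within 3.26-fold, and in that set every treated mean was above every vehicle mean.

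Thrsp rose 6.18-fold in 27 h males at an adjusted p of 1.50e-35, by the authors' deposited table. It rose 4.81-fold in 3 h females (adjusted p = 2.22e-22) and 4.05-fold after PCN (adjusted p = 3.45e-18) in that table. The rises were 1.87-fold in 3 h males (adjusted p = 0.00135) and 1.81-fold in 27 h females (adjusted p = 0.0470), as the authors' deposited table gives them. The 4 TCPOBOP folds are in the reverse order of their vehicle means, a relation to which the arithmetic contributes because the vehicle mean is the denominator. The call in 27 h females is the one closest to the threshold.

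Pnpla3 (adiponutrin, chr15:83998246-84019951, mm9) encodes a lipid droplet protein of the patatin-like phospholipase family. Its vehicle means in the authors' deposited table were 0.972 and 0.756 FPKM in 3 h and 27 h males, 2.14 and 2.01 in 3 h and 27 h females and 0.858 in the PCN set. Treated means were 2.61, 2.71, 7.99, 9.78 and 5.06 FPKM in the same order. The rises in the authors' deposited table were 2.67-fold in 3 h males (adjusted p = 0.000715), 3.70-fold in 27 h males (adjusted p = 7.65e-11), 3.90-fold in 3 h females (adjusted p = 1.70e-09) and 5.12-fold in 27 h females (adjusted p = 9.37e-10).

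PCN raised Pnpla3 6.62-fold at an adjusted p of 4.68e-09 in the authors' deposited table, the 17th largest fold among 1150 raised genes at 1 FPKM or more. The female means exceeded the male means of the same treatment and time in both vehicle and TCPOBOP pools, and no test of that difference can be had from group means. The level is low: at an exonic length of 1313 bases, that of the linked GENCODE transcript, 0.756 FPKM is about 70 reads over the 2 pools of 27 h male vehicle. A miRNA row, Mir6392, lies within Pnpla3 in the table, and was 0.162 FPKM in PCN vehicle and 4.31 after PCN (adjusted p = 1.47e-05) in the authors' deposited table; reads over this stretch cannot be assigned to one or the other.

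Srebf1 (chr11:60012591-60034106, mm9) had a different pattern. Its vehicle means in the authors' deposited table were 27.2 FPKM at 3 h and 33.6 at 27 h in males, 25.1 and 78.5 in females and 23.96 in the PCN set. Treated means were 32.2 and 26.2 FPKM in males, 21.9 and 36.6 in females and 11.2 after PCN. It was lowered 2.05-fold in 27 h females (adjusted p = 0.000413) and 1.90-fold after PCN (adjusted p = 3.80e-05) by the authors' deposited table. The other comparisons had log2 ratios of 0.23 (males at 3 h), -0.30 (males at 27 h) and -0.14 (females at 3 h) and no call.

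The female 27 h vehicle mean of Srebf1 stands well above the other vehicle means, and the TCPOBOP mean of that time was the highest of the 5 treated means. Against the 3 h female vehicle pools the log2 ratio of the 27 h TCPOBOP pools was 0.54, so the direction of this call rests on the 27 h vehicle pools. Rai1 overlaps Srebf1 in the table, and the labels conflict on strand in the PCN set: they call its libraries unstranded and also name a directional kit. If strand was not kept, reads of overlapping genes cannot be told apart there. Rai1 was 2.12 FPKM in both PCN set groups in the authors' deposited table, with a log2 ratio of 0.17 and no call. The table has 1 row for Srebf1, so its isoforms were not separated.

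**Figure D2:**
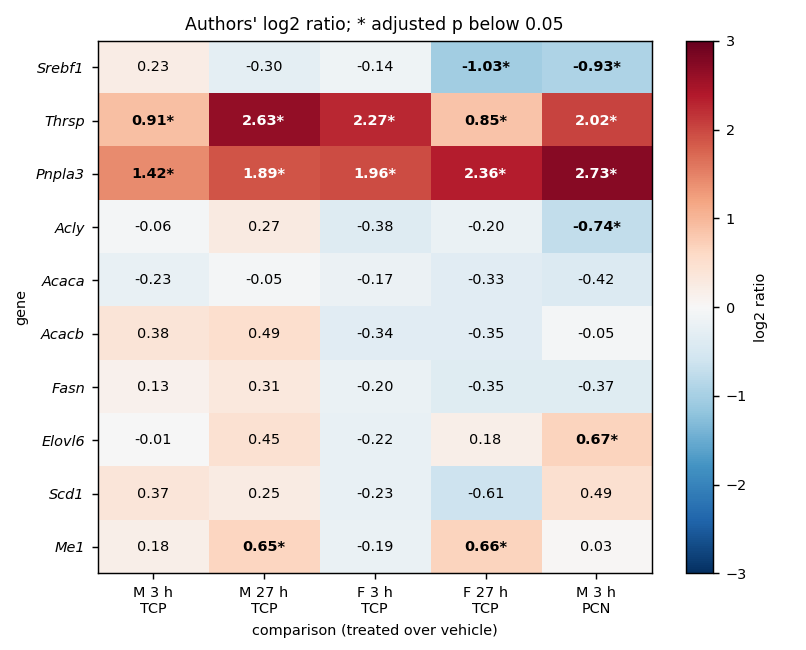
Log2 ratio of treated over vehicle for each gene (rows) and comparison (columns) in the authors' deposited table, with calls in bold and starred; red is higher after treatment and blue lower. The rows of Thrsp (0.85 to 2.63) and Pnpla3 (1.42 to 2.73) are red throughout, and those of the enzymes lie between -0.74 and 0.67.

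The enzymes that make palmitate had 1 call in all. On mm9 they are Acly at chr11:100337666-100389314, Acaca at chr11:84008940-84215153, Acacb at chr5:114615527-114700767 and Fasn at chr11:120667272-120685861. Acly, which cuts citrate to acetyl-CoA, was 6.67 FPKM in PCN vehicle and 3.55 after PCN, a fall of 1.66-fold at an adjusted p of 0.00170 in the authors' deposited table. After TCPOBOP its log2 ratios were -0.06 and 0.27 in 3 h and 27 h males and -0.38 and -0.20 in 3 h and 27 h females, none of them called. Fasn, the synthase itself, was 9.21 FPKM in vehicle and 10.2 after TCPOBOP in 3 h males, and 11.7 and 14.04 in 27 h males, in the authors' deposited table. In females it was 11.0 and 9.16 FPKM at 3 h, and 25.7 and 19.2 at 27 h. After PCN it was 5.99 FPKM against 8.72 in vehicle (adjusted p = 0.446 in the authors' deposited table).

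Acaca, the cytosolic carboxylase, had a log2 ratio below 0 in each comparison, from -0.05 in 27 h males to -0.42 after PCN (adjusted p = 0.0962), and no call. Acacb, the carboxylase of the outer mitochondrial membrane whose malonyl-CoA restrains fatty acid import, was 4.45 FPKM in vehicle and 6.03 after TCPOBOP in 27 h males, at an adjusted p of 0.0520 in the authors' deposited table. In 27 h females it was 8.70 FPKM in vehicle and 6.502 after TCPOBOP in that table (adjusted p = 0.628). A p above the threshold does not show that these genes were unaffected.

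Me1 (chr9:86474970-86589947 on mm9, with a shorter entry at chr9:86474970-86581206), malic enzyme, makes NADPH in the cytosol. It rose 1.57-fold in 27 h males, from 4.78 to 7.21 FPKM (adjusted p = 0.000387), and 1.58-fold in 27 h females, from 2.23 to 3.39 FPKM (adjusted p = 0.0345), in the authors' deposited table. Neither 3 h TCPOBOP comparison nor PCN had a call, with log2 ratios of 0.18, -0.19 and 0.03. Against the 3 h vehicle pools of the same sex, the log2 ratio of the 27 h TCPOBOP pools was 0.09 in males and -0.10 in females. The size of the rise in males and its direction in females thus rest on the 27 h vehicle pools. The means of those pools were below those of 3 h (4.78 against 6.77 FPKM in males and 2.23 against 3.63 in females).

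Elovl6 (chr3:129235304-129341411, mm9) lengthens palmitate to stearate. PCN raised it 1.59-fold, from 2.32 to 3.29 FPKM, at an adjusted p of 9.11e-05 in the authors' deposited table, and TCPOBOP gave no call, with log2 ratios from -0.22 in 3 h females to 0.45 in 27 h males. Scd1 (chr19:44468940-44482199, mm9), the main desaturase of liver, was 26.4 FPKM in PCN vehicle and 32.9 after PCN, at an adjusted p of 0.0520 in the authors' deposited table. Its log2 ratios after TCPOBOP were 0.37 and 0.25 in 3 h and 27 h males and -0.23 and -0.61 in 3 h and 27 h females, none of them called. Scd1 has close paralogs, and how shared reads were counted is not given in the sources used here.

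In females the 7 enzymes had log2 ratios from -0.38 to -0.17 at 3 h, all below 0, with a median of -0.22. Against the 27 h female vehicle pools, however, Scd1 (0.74), Me1 (0.45) and Elovl6 (0.15) lay above 0. At 27 h in females they ran from -0.61 to 0.66 with a median of -0.33 and 5 of 7 below 0. In males given TCPOBOP the median was 0.13 at 3 h with 3 of 7 below 0, and 0.31 at 27 h with 1 of 7 below 0. After PCN it was -0.05 with 4 of 7 below 0. No test of the sex difference can be had from group means. The ratios in the authors' deposited table are scaled by the authors, and in the PCN comparison they lie a median of 0.17 log2 units above the quotient of the FPKM means over genes at 1 FPKM or more. By that quotient Elovl6 stood at 0.50 and Me1 at -0.14 after PCN, so that the sign of Me1, which was not called, depends on the scaling.

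To compare vehicle groups, 0.1 was added to each mean FPKM and the log2 quotient was taken, less the median over the 10074 genes that averaged 1 FPKM or more over the groups. In females, 5 of the 10 genes were at least 2-fold apart between vehicle at 3 h and at 27 h, against 13.1% of those genes. Srebf1 was 2.81-fold higher at 27 h, Acly 2.64-fold, Thrsp 2.56-fold and Fasn 2.09-fold, while Scd1 was 2.27-fold lower. Between the male vehicle pools only Thrsp was 2-fold apart, 2.23-fold lower at 27 h, against 2.41% of all these genes. Pnpla3 differed by 1.33-fold in males and 1.18-fold in females.

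Livers were collected at the same hours on both days per the labels, and some clock genes differed along with the members between the female vehicle groups. Of 15 clock genes 5 were at least 2-fold higher at 27 h in females (Dbp, Tef, Per2, Per3 and Ciart) and Cry1 was 2.17-fold lower, while the other 9 were less than 2-fold apart. In males none of the 15 was 2-fold apart. Dbp, a clock output gene, was 0.966 FPKM in female vehicle at 3 h and 40.6 at 27 h, against 3.94 and 3.19 in males, in the authors' deposited table. Per3 was 1.94 and 15.3 FPKM in the female vehicle groups and 2.76 and 2.21 in the male ones in that table. Acss2, an acetyl-CoA synthetase known as an SREBP target, was 7.86 FPKM at 3 h and 52.0 at 27 h in female vehicle in the authors' deposited table. The summed level of 15 clock genes was 214.7 FPKM in 27 h female vehicle and 55.9 to 102.0 in the other 4 vehicle groups. TCPOBOP lowered 7 of 14 clock genes at 1 FPKM or more in 27 h females and raised 1, beside 6.01% lowered and 6.98% raised of all genes at that level. PCN lowered 6 of 12 and raised none, beside 9.41% and 12.9%. In 27 h males 4 of 13 were lowered and 2 raised, beside 7.61% and 8.71%. In 3 h females 1 of 14 was lowered and 2 raised, beside 1.84% and 2.67%, and in 3 h males 1 of 12 was lowered and none raised, beside 0.505% and 1.33%. The part of the clock genes in the results for Srebf1 and the other members was not tested.

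Genes of the fasting and glucagon response, which move opposite to lipogenic genes on feeding, had 5 of 10 lowered in 27 h males, beside 7.61% of all genes at 1 FPKM or more, and 5 of 10 in 27 h females, beside 6.01%. In 3 h females 2 of 11 were lowered, beside 1.84%, and in 3 h males 1 of 11, beside 0.505%. None was raised after TCPOBOP. After PCN 4 of 11 were raised and 3 lowered, beside 12.9% and 9.41%. Igfbp1, which insulin represses, fell 2.99-fold in 27 h males, from 12.7 to 4.08 FPKM, and rose 3.81-fold after PCN, from 11.7 to 39.5 FPKM, in the authors' deposited table. Thrsp and Pnpla3 rose in both of these comparisons, and the part of the feeding state was not tested.

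**Figure D3:**
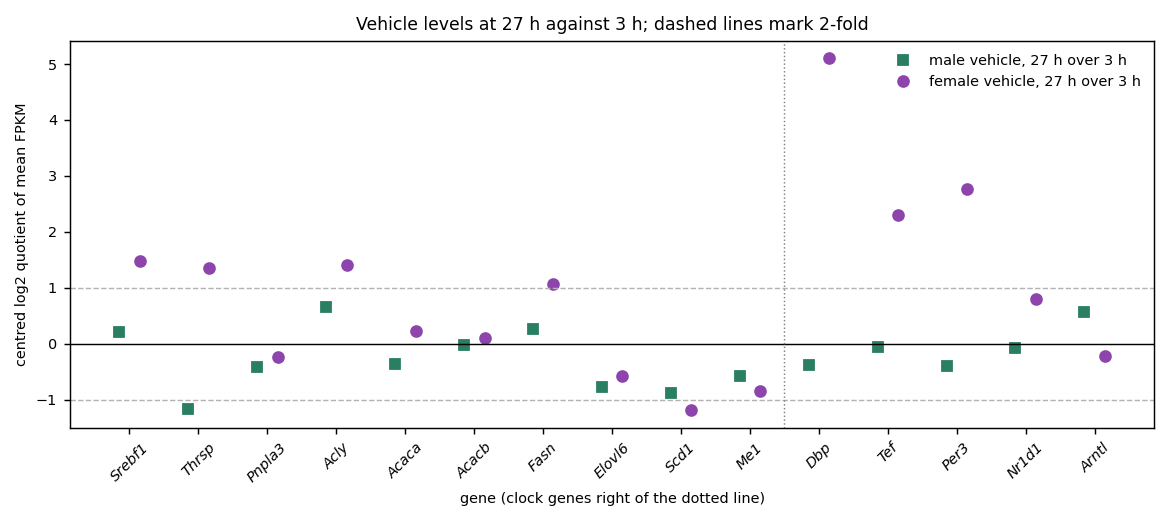
Centred log2 quotient of the vehicle mean FPKM at 27 h over 3 h for the 10 genes and 5 clock genes, males as squares and females as circles; dashed lines mark 2-fold. In females Srebf1, Thrsp, Acly and Fasn lie above the upper line and Scd1 below the lower one, beside Dbp at 5.10 and Per3 at 2.76.

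Between the sexes, Pnpla3 was 2.14-fold higher and Scd1 2.22-fold lower in female than in male vehicle at 3 h. At 27 h Pnpla3 was 2.39-fold higher and Scd1 2.76-fold lower, and Thrsp, Srebf1, Fasn and Me1 were also at least 2-fold apart, the first 3 of these higher in females and Me1 lower. At 3 h 2.86% and at 27 h 7.54% of the 10074 genes were 2-fold apart. These quotients come from 2 pools per group with no spread and are descriptions.

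Since the vehicle levels of the 2 times differed, each TCPOBOP group was also set against the vehicle pools of the other time. The log2 ratio of Pnpla3 was then 1.79 and 1.48 in males at 3 h and 27 h and 1.99 and 2.19 in females, and that of Thrsp was 2.00, 1.49, 0.68 and 2.32. Neither gene changed direction, but the size of the Thrsp ratio depended on the vehicle. Against vehicle of the same time it was 0.91, 2.63, 2.27 and 0.85. Fasn and Acly in 3 h females went from -0.20 and -0.38 to -1.49 and -2.01, and in 27 h females from -0.35 and -0.20 to 0.81 and 1.31.

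**Figure D4:**
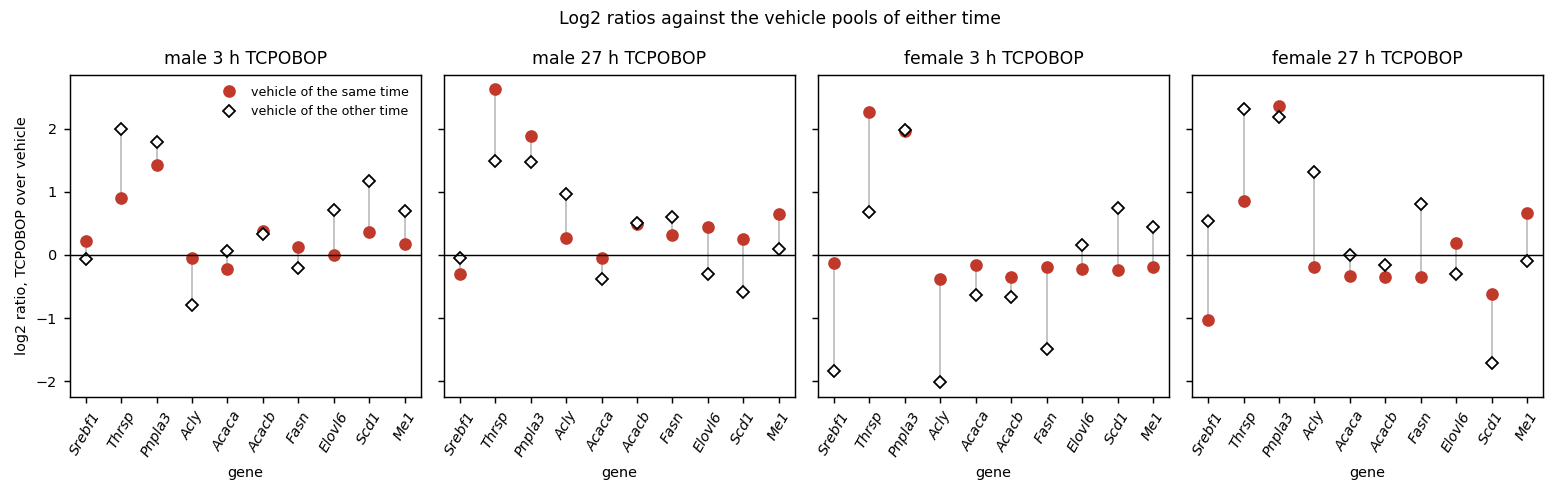
Log2 ratio of TCPOBOP over vehicle for the 10 genes in the 4 TCPOBOP comparisons, against vehicle pools of the same time (red, the authors' ratio) and of the other time (open diamonds, quotient of mean FPKM). Thrsp and Pnpla3 lie above 0 by both. The ratios of Thrsp in all 4 comparisons and the female ratios of Srebf1, Acly and Fasn move by 1 log2 unit or more, as does that of Scd1 in 27 h females.

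Across the 8 group means of the TCPOBOP set the genes did not share 1 pattern. Pearson's r of log2 levels, given as a description with no p, was 0.92 between Fasn and Acly, 0.85 between Srebf1 and Fasn and 0.75 between Thrsp and Pnpla3. Scd1 and Me1 went together at 0.85, and Scd1 ran against Fasn at -0.72. Without the female 27 h vehicle group, r was 0.91, 0.61, 0.76, 0.83 and -0.68 for these pairs over 7 groups. The groups share the sexes and times, so these are few independent points. The genes most like the mean pattern of the 10 were Gm26705 (r = 0.95), Setdb1 (0.93), Nomo1 (0.92), Nmt1 (0.90) and Prmt3 (0.89), followed by Inmt, Eef1g, Ercc3, Itgb2 and A930013F10Rik. They were picked as the highest r of all genes averaging 1 FPKM or more over 8 group means, so high values can arise from the picking. The mean pattern also averages members that ran against each other, such as Scd1 and Fasn.

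The rest of the pathway was read from 6 lists, counted among genes at 1 FPKM or more in vehicle or treated pools. Among all such genes 1.83% were called in 3 h males (1.33% raised, 0.505% lowered), 16.3% in 27 h males (8.71% and 7.61%) and 4.51% in 3 h females (2.67% and 1.84%). The shares were 13% in 27 h females (6.98% and 6.01%) and 22.3% after PCN (12.9% and 9.41%). Of the genes that control SREBP, 1 of 16 was raised in 3 h males, 3 of 16 in 27 h males, none of 16 in 3 h females and 1 of 17 in 27 h females, where 1 was lowered. After PCN 3 of 15 were raised and 2 lowered. Insig2, which holds the SREBP complex in the endoplasmic reticulum, was raised in 4 of the 5 comparisons, 1.59-fold and 1.604-fold in 3 h and 27 h males, 3.53-fold in 27 h females and 2.83-fold after PCN (adjusted p = 2.01e-33), in the authors' deposited table.

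Its sister gene Insig1, itself a known SREBP target, fell 3.23-fold after PCN, from 23.6 to 6.49 FPKM (adjusted p = 2.89e-17), and rose 1.54-fold in 27 h males (adjusted p = 0.00330), in the authors' deposited table. Insig2 in female vehicle was 54.4 FPKM at 3 h and 12.9 at 27 h in that table, so its female 27 h rise is again set against the vehicle pools that stand apart. The 27 h female TCPOBOP mean was 43.6 FPKM, below the 3 h vehicle mean, so the direction of that call rests on the 27 h vehicle pools. In males Insig2 was 49.7 FPKM in 3 h vehicle, 32.9 in 27 h vehicle and 50.7 after TCPOBOP at 27 h. The size of the male 27 h rise thus also rests on the 27 h vehicle pools. Mid1ip1, the paralog of Thrsp, was lowered after PCN and raised 1.58-fold in 27 h males (adjusted p = 0.00209) in the authors' deposited table.

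Elongation and desaturation genes outside the 10 had 3 of 11 raised in 3 h males and 5 of 11 in 27 h males with none lowered. In 3 h females 1 of 11 was raised and 1 lowered, and in 27 h females 4 of 12 were raised. After PCN 1 of 12 was raised and 7 were lowered. Elovl3, which elongates saturated chains, was raised in all 5 comparisons. Its rises in the 4 TCPOBOP comparisons ran from 1.94-fold in 3 h males to 13.9-fold in 27 h females, where the authors' deposited table lists 0.364 FPKM in vehicle. Fads1, the delta-5 desaturase, rose 2.02-fold in 27 h males (adjusted p = 5.64e-11) and 2.32-fold in 27 h females (adjusted p = 3.25e-06), and after PCN Elovl5 fell 1.55-fold (adjusted p = 0.000101), in the authors' deposited table.

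Genes that supply citrate, acetyl-CoA and NADPH had 2 of 11 lowered in 3 h males, 2 raised and 1 lowered of 11 in 27 h males, 1 of 11 lowered in 3 h females, 2 raised and 2 lowered of 11 in 27 h females and 1 raised and 2 lowered of 12 after PCN. Slc13a5, the plasma membrane citrate carrier, fell 3.71-fold in 27 h males (adjusted p = 8.68e-19) and rose 2.21-fold after PCN (adjusted p = 0.000153) in the authors' deposited table. Acss2 fell 1.70-fold in 3 h females, 2.19-fold in 27 h females and 1.92-fold after PCN in that table. The 27 h female fall, from 52.0 to 22.8 FPKM, is set against the vehicle pools that stand apart. Female vehicle at 3 h was 7.86 FPKM, below the 27 h TCPOBOP mean, so the direction of that call rests on the 27 h vehicle pools.

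The glycolytic and ChREBP target list had no call of 14 in 3 h males, 1 raised and 2 lowered in 27 h males, 1 raised in 3 h females, 1 raised and 3 lowered in 27 h females and 3 raised and 2 lowered after PCN. Pfkfb3, which makes the activator of glycolysis fructose 2,6-bisphosphate, was the raised gene in each of the TCPOBOP comparisons with a raised call, and rose 5.54-fold after PCN (adjusted p = 2.25e-16) in the authors' deposited table.

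Triglyceride synthesis genes had 1 of 12 lowered in 3 h males, 2 raised and 2 lowered of 12 in 27 h males, 1 of 12 lowered in 3 h females, 1 raised and 1 lowered of 13 in 27 h females and 3 raised and 1 lowered of 12 after PCN. Agpat2, an acyltransferase of the phosphatidic acid route, fell 1.78-fold in 27 h males (adjusted p = 2.29e-07), 1.46-fold in 3 h females and 2.37-fold in 27 h females, in the authors' deposited table. Lpin1, the next enzyme of that route, rose 3.60-fold after PCN and fell 1.64-fold in 3 h males in that table.

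Lipid droplet and lipase genes, the class of Pnpla3, had no call of 13 in 3 h males, 1 raised and 4 lowered of 12 in 27 h males, 2 of 13 lowered in 3 h females, 1 raised and 7 lowered of 11 in 27 h females and 3 raised and 3 lowered of 14 after PCN. Abhd5, the activator of the lipase Pnpla2, rose 1.54-fold in 27 h males and 2.37-fold in 27 h females, in the authors' deposited table. Plin5 fell 2.40-fold in 27 h females (adjusted p = 1.03e-05) and G0s2, an inhibitor of Pnpla2, fell 5.60-fold after PCN (adjusted p = 1.41e-27), in that table.

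**Figure D5:**
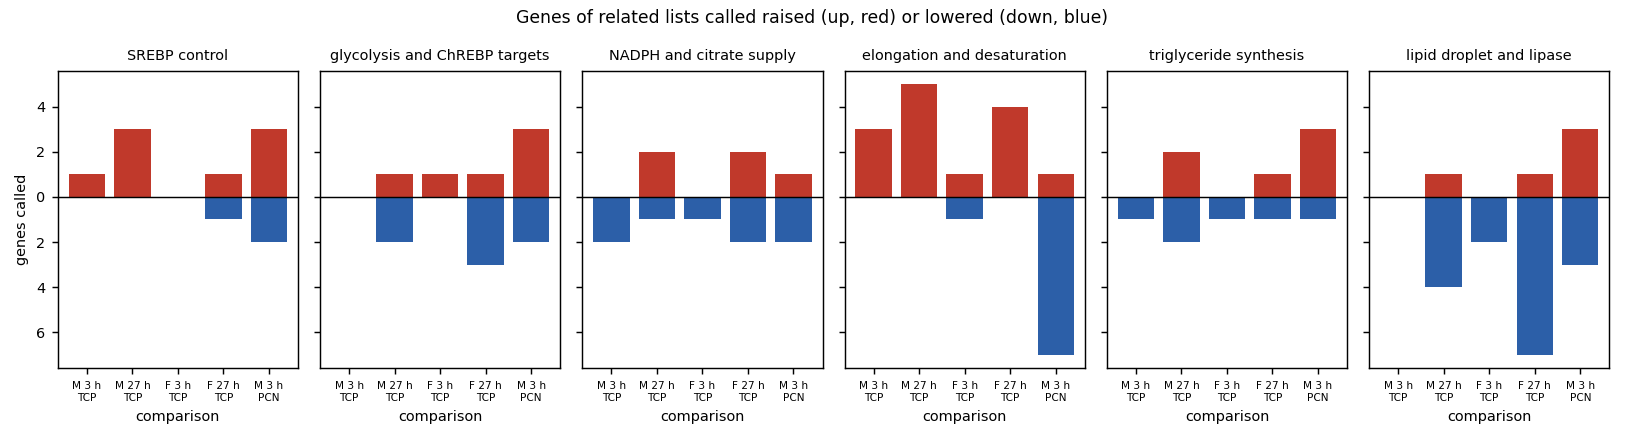
Number of genes called raised (red, upward) and lowered (blue, downward) in each of 6 lists around fatty acid synthesis, for the 5 comparisons. The elongation and desaturation list has 5 raised in 27 h males and 7 lowered after PCN, and the lipid droplet list has 7 lowered in 27 h females.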

How the data were processed

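Per the submitters' processing notes, the genome build was mm9 and the authors' tools were TopHat2, HTSeq (0.6.1p1), featureCounts (1.4.6-p5) and edgeR. The deposited table gives, for each of 5 comparisons, the authors' ratio, their signed fold change, the mean FPKM of each group and an adjusted p-value. Per the legend, counting was over gene bodies; whether intronic reads are included and which genes were filtered is not given in the sources used here. Per the labels, libraries of the TCPOBOP set kept strand. The labels call the PCN libraries unstranded but name a directional kit for them too, a conflict not settled here, so levels of the sets are given side by side and no quotient was taken between them.

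Log2 ratios, quotients and counts were computed with Python 3.11.15 and pandas 2.3.3. Depth was read from the steps of low FPKM values in 3335 genes with a span below 1500 bp, and the procedure was tested on simulated data. In genes with a span above 5000 bp, 44.9% of 5879 low FPKM values came out whole in reads, to 0.1%, with the exonic length of the linked GENCODE transcript. With the span it was 1.52% of 198 values. The 2 sets differ because low values were picked after scaling by each length. Counting error is the only error such depths describe. Replicates are pools of livers, per the labels, so the authors' adjusted p-values rest on differences between pools and not between single mice.

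The named genes are the 10 members, up to 3 called genes of each list and comparison with the smallest adjusted p, and the 10 genes most like the members; clock and fasting genes, vehicle levels of Insig2 and Acss2, Rai1, Mir6392, and genes of the lists outside that rule were chosen after their values were seen. Members and lists were chosen with earlier results of these data known. All list symbols matched the table, Tkfc as Dak and Tf as Trf. Alternatives were other thresholds, fold minimums, filters, pseudocounts, scalings and the vehicle of the other time.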

Additional observations from a re-analysis of the deposited data

How the results depend on the processing

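Of the 10 members, Thrsp and Pnpla3 were the 2 raised in all 5 comparisons. At an adjusted p below 0.01 or below 0.001, or with a minimum of 2-fold, the number was 1 (Pnpla3). Without the female 27 h comparison, an alternative chosen after seeing the data, the number was 2. Leaving out a comparison cannot lower this count, so that alternative could only have added members. The number of members called in 3 h males was 1 at an adjusted p below 0.001 and 1 with a minimum of 2-fold. In 27 h females it was 2 at 0.01, 2 at 0.001 and 2 with a minimum of 2-fold, and after PCN 2 with a minimum of 2-fold. Against the vehicle of the other time, the called log2 ratios of Srebf1 (0.54) and Me1 (-0.10) in 27 h females reversed; of 40 such ratios 20 moved by less than 1.5-fold and 18 by more without a called gene reversing. With the same vehicle, 198 of 200 ratios moved by less than 1.5-fold under other scalings and pseudocounts. The others were Pnpla3 with 1 FPKM added, in 27 h males (1.08) and after PCN (1.71), where the constant is near the level itself. Of the 200, the 50 centred on the median shift by 1 small constant per comparison and could not have moved that far. With 1 FPKM added, 1 member was 2-fold apart between the sexes' 3 h vehicle pools, in place of 2, and 4 between their 27 h vehicle pools, in place of 6. Over all 10 groups, 5 of the 10 genes most like the members were shared with the list from 8 groups. No paired analysis was possible because the columns hold group means and carry no pool numbers, and leaving out single pools was not run for the same reason. Low levels, above all of Pnpla3 in males, rest on few reads.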
